A study of Mus musculus with 12 samples.

Results

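Pdgfra, Sox10, Olig1 and Olig2 are 4 genes of the oligodendrocyte lineage, the cells that make myelin in the brain. They were followed here as m6A peaks in mouse hippocampus. N6-methyladenosine (m6A) is a methyl group that cells add to adenosines in many messenger RNAs and that can alter how long a transcript lasts and how it is translated. In m6A-IP an antibody captures RNA fragments that carry the mark, and a peak is a place where the captured fraction (IP) gave more sequence tags than RNA sequenced without capture (the input, or control). The members were chosen by the authors' peak calls, which rest on IP tags over control, inside a window around each gene in build mm9, and the genes were picked with earlier results of these data known. The windows were chromosome 5 from 75548000 to 75595000 for Pdgfra, chromosome 15 from 78985000 to 78995300 for Sox10, chromosome 16 from 91269300 to 91272800 for Olig1 and chromosome 16 from 91225000 to 91229500 for Olig2. They held 43 of the 148097 peaks deposited by the authors: 6 in Pdgfra, 13 in Sox10, 12 in Olig1 and 12 in Olig2.

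The peak lists came from whole hippocampus of male wild-type C57BL/6 mice, 2 libraries at 2 weeks of age and 2 at 6 weeks, numbered as biological replicates 1 and 2 at each age. No treatment or transgene is named for them, and the labels do not tie a library to single animals, so p-values measure the spread between these samples. The series describes 12 samples, and 8 of them, among them adult Fto knock-out and wild-type hippocampi, were not analysed here. The IP libraries held 23.4 and 23.0 M tags at 2 weeks, against 16.1 and 16.5 M at 6 weeks, so age cannot be told apart from IP depth. The control libraries held 29.3 and 16.8 M tags at 2 weeks, against 15.8 and 11.7 M at 6 weeks. Both 6-week controls were thus shallower, and age cannot be told apart from control depth either. Levels below are tags in the 100 bp peak of each library, per 10 M tags of that library. Nearly all peaks have the same printed width, but tags may not always have been counted over exactly the printed interval. The order of levels between genes and the differences between libraries or ages are therefore approximate.

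Pdgfra encodes the platelet-derived growth factor receptor alpha, a receptor tyrosine kinase whose ligand drives division and survival of oligodendrocyte precursor cells. It marks these precursors in the brain and is switched off as they mature. Olig2 and Olig1 are neighbouring genes for basic helix-loop-helix transcription factors, of which Olig2 specifies the lineage and Olig1 acts mainly in maturation and repair. Sox10 is an HMG-box transcription factor that stays on through the lineage and activates myelin genes together with other factors. In the hippocampus, precursors give rise to myelinating cells mostly after birth.

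At the peaks present in every library, Pdgfra was the only gene of the 4 whose input level passed the test between the ages. Its fall was known when these genes were chosen, and the call did not hold in every setting. In the fits below, 1.07% of 4577 and 0.304% of 10203 regions passed in the falling direction. Pdgfra input tags fell 5.55-fold from 2 to 6 weeks in the mean. Those of the transcription factor genes at such peaks differed 1.24-fold to 1.73-fold and did not pass. The difference between the genes was not tested. Regions missing from 1 list were not fitted. Olig1 had one with 51.2 input tags per 10 M in 6-week replicate 2, against 153 and 177 at 2 weeks. The Sox10 region at 78986574 had 8.87 in 6-week replicate 1, against 20.1 and 33.3. At the Sox10 region at 78989094 that library lay between the 2-week levels. IP tags at Pdgfra stayed near the 2-week level in one 6-week library and were far lower in the other. No member passed the test for a changed m6A enrichment, the ratio of IP to input.

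Peaks that shared at least 1 bp were merged, which gave 15 regions in the 4 windows. Of these, 5 were called in all 4 libraries, 3 in 3 libraries, 1 in 2 and 6 in a single library. That is 33.3% called in all 4, against 14.4% of the 70674 regions of the whole lists. None was called in both libraries of one age and neither of the other, which over the whole lists was so for 6.41% of regions at 2 weeks and 1.92% at 6 weeks. A count of 0 of 15 is near those shares. The 5 regions in every list were 1 of Pdgfra (chromosome 5 from 75591267 to 75591385), 1 of Sox10 (chromosome 15 from 78986719 to 78986958), 2 of Olig1 (chromosome 16 from 91270354 to 91270508, called the first here, and from 91270923 to 91271059, the second) and 1 of Olig2 (chromosome 16 from 91227793 to 91228023). Exon, intron and UTR were not assigned, since no mm9 annotation was used here.

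**Figure D1:**
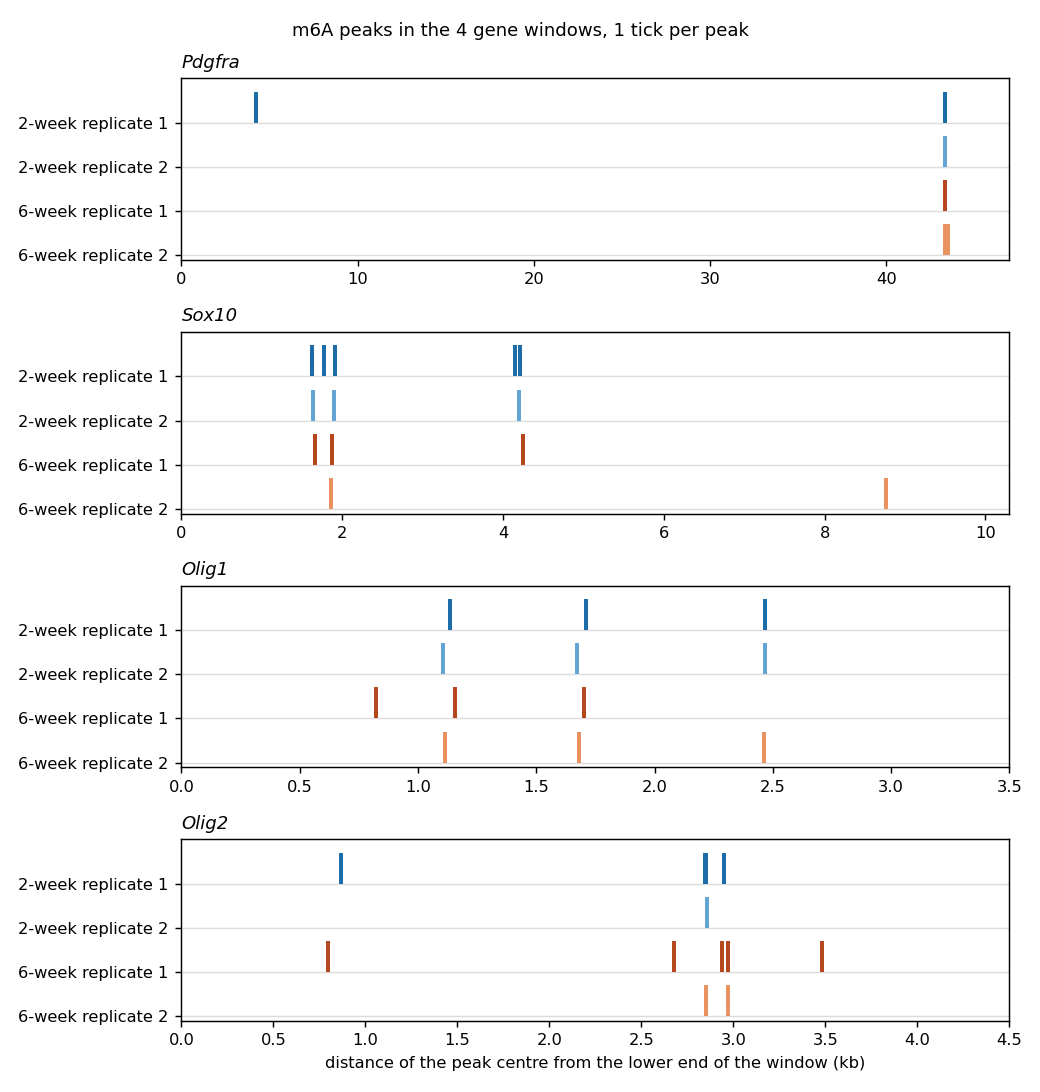
Position of each peak centre in kb from the lower end of its window (horizontal axis), with 1 row per library and 1 tick per peak. Pdgfra has a peak near 43.3 kb in every library, and all libraries share clusters of peaks in Olig1, Olig2 and Sox10 beside scattered ticks from single libraries.

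In Pdgfra, the largest of the windows at 47.0 kb, 5 of the 6 peaks sat close together. The region in every list began 43.3 kb from the lower end, and RefSeq places the gene on the plus strand, so it lies toward the 3' end of the window. Peak starts of the 4 libraries lay within 18 bp of each other there. In 6-week replicate 2 a further peak, not called elsewhere, began at 75591443, with 42.4 IP tags per 10 M at 8.28-fold over control. The remaining peak, at 75552190 in 2-week replicate 1, rested on 14 IP and 4 control tags.

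**Figure D2:**
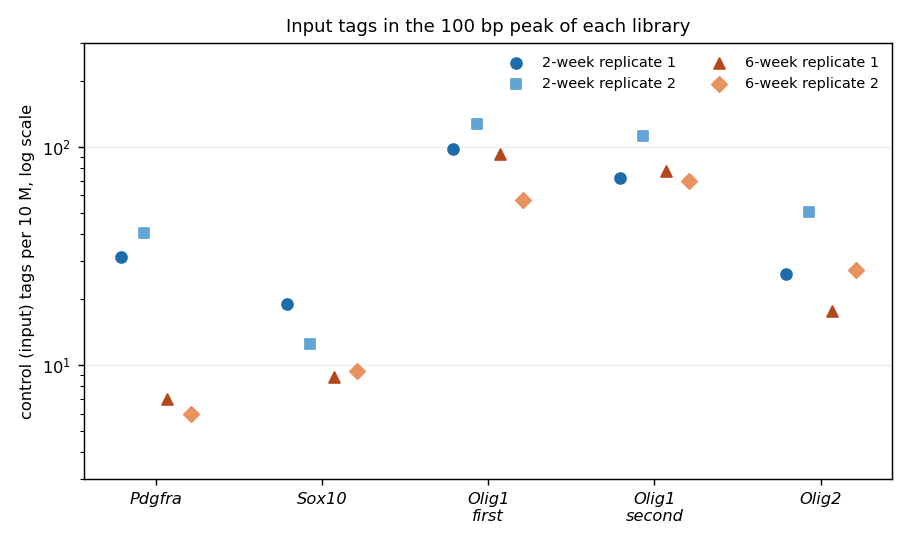
Input (control) tags per 10 M, on a log axis, in the 100 bp peak of each library at the 5 regions called in all 4 libraries, with 1 point per library. At Pdgfra the 6-week points (6.97 and 5.98) lie far below the 2-week points (31.4 and 40.4), while the ages lie closer together or overlap at the other regions.

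Input tags at a peak were taken here as the level of that poly(A)+ RNA. They cover only the peak, and only places where IP stood at least 3-fold over control. Regions of the same gene can differ: input at the second Olig1 region was 0.732 to 1.22 times that at the first across the libraries. In whole tissue, fewer cells of a type and less RNA per cell cannot be told apart. At the Pdgfra region the input level was 31.4 and 40.4 tags per 10 M at 2 weeks, against 6.97 and 5.98 at 6 weeks. Both 6-week libraries were thus low and the ages did not overlap. The means were 35.9 ± 6.37 and 6.47 ± 0.701 (SD, n = 2 each), and the 6-week values rested on 11 and 7 tags, whose exact 95% Poisson intervals (counting error only) reach 12.5 and 12.3 tags per 10 M, below the 2-week lower bounds of 25.3 and 31.4. A fit with edgeR's quasi-likelihood test used the 4577 regions that had exactly 1 peak per list, and there the log2 change was -1.92 ± 0.47 (SE; adjusted p = 0.0119). This region ranked 33rd by p, and 2.64% of regions had a lower log2 change. In that fit 1.07% of regions passed in the falling direction and 1.11% in the rising one. The fall at Pdgfra was known when these genes were chosen, so it is a description and not independent evidence.

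The call at Pdgfra was lost without either 2-week library. With 2-week replicate 1 or 2 left out, the log2 change was -2.01 and -1.83 with edgeR adjusted p of 0.787 and 0.50, and no region of the 4577 passed in either setting. DESeq2 gave -1.90 and no adjusted p here, since it adjusted p for only 1116 of the 4577 regions.

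Olig1 had the highest input level of the 4 genes in every library. At its first region the level was 97.9 and 127 tags per 10 M at 2 weeks and 92.5 and 57.2 at 6 weeks. At the second it was 71.6 and 112 at 2 weeks and 77.9 and 70.0 at 6 weeks. The ages did not overlap at the first region and overlapped at the second. In the edgeR fit the log2 changes were -0.06 ± 0.33 and 0.23 ± 0.33 (SE; adjusted p = 0.959 and 0.793). With total tags in place of TMM scaling, which moved the median of all 4577 regions from -0.03 to -0.53, they became -0.58 and -0.31, so the sign at the second region rests on the scaling.

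Olig2 and Sox10 had more than 1 peak in some lists at their shared regions, so they were tested in a fit over the 10203 regions with at least 1 peak in each list, each library represented by its peak with the most IP tags. At Olig2 the input level was 26.3 and 50.5 tags per 10 M at 2 weeks and 17.7 and 27.3 at 6 weeks, and the ages overlapped. The peaks behind these values started up to 115 bp apart, and the overlap rests on which peak was taken. In 6-week replicate 2 the value came from the peak at 91227923. Its other Olig2 peak, at 91227800, held fewer IP tags and had 15.4 input tags per 10 M, below both 2-week values. At Sox10 the level was 19.1 and 12.5 at 2 weeks and 8.87 and 9.39 at 6 weeks, without overlap, from 14 and 11 tags at 6 weeks. Their log2 changes were -0.21 ± 0.41 and -0.31 ± 0.48 (SE; edgeR adjusted p = 0.882 and 0.839). In the same fit Pdgfra changed by -1.92 (adjusted p = 0.0326), and 0.402% of the regions passed in the rising and 0.304% in the falling direction. That call was lost under DESeq2 (-1.90, adjusted p = 0.0865). In edgeR it was lost without 6-week replicate 1 (-1.95, adjusted p = 0.0548) and without 2-week replicate 1 or 2 (-2.05 and -1.83, adjusted p = 0.167 and 0.25), and without those 2-week replicates 20 and 27 other regions passed higher and 6 and 7 lower.

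At 3 of the 5 regions (Pdgfra, Sox10 and the first of Olig1) the input levels of the 6-week pair were both lower than those of the 2-week pair, which was so at 46.6% of all 10203 regions. Lower 6-week input per 10 M was therefore common, and no more can be read from that count.

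Ratios between genes within a library do not depend on the scaling between libraries. Pdgfra input stood at 0.321 and 0.318 of the first Olig1 region at 2 weeks, and at 0.0753 and 0.104 of it at 6 weeks. Against Olig2 the ratio was 1.19 and 0.80 at 2 weeks and 0.393 and 0.219 at 6 weeks. Set against Sox10, it was 1.64 and 3.24, then 0.786 and 0.636. At these regions Pdgfra input was thus near that of Olig2 and above that of Sox10 at 2 weeks, and below that of Olig2 at 6 weeks. Against Sox10 at 6 weeks it rested on 11 against 14 and 7 against 11 tags, which counting error cannot separate. Against Olig2 the counting intervals overlapped in 6-week replicate 1. The gap to Sox10 at 2 weeks depends on the region taken. In 2-week replicate 2 the neighbouring Sox10 region at 78986574 had 33.3 input tags per 10 M, against 40.4 at Pdgfra. The ratios of Pdgfra to the other genes share the Pdgfra value, and none overlapped between the ages. Over the 10202 regions other than the one divided by, 19.8% had a ratio to the first Olig1 region that was lower in both 6-week libraries than in both at 2 weeks, 10.1% had such a ratio to Olig2 and 12.4% to Sox10. With 2 libraries against 2, an exact two-sided p cannot go under 0.333. Olig2 against the first Olig1 region gave 0.268 and 0.397 at 2 weeks and 0.192 and 0.478 at 6 weeks, and Sox10 against it gave 0.195 and 0.0981, then 0.0959 and 0.164. Both sets overlapped between the ages.

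By input level at 2 weeks, Olig1 was highest, Olig2 and Pdgfra changed places between the libraries, and Sox10 was lowest in both. The counting intervals of Olig2 and Pdgfra overlapped in both 2-week libraries, and those of Sox10 and Olig2 overlapped in replicate 1. At 6 weeks the order was Olig1, Olig2, Sox10 and Pdgfra in both libraries. There the counting intervals of Sox10 overlapped those of Pdgfra in both libraries and that of Olig2 in replicate 1. Those of Pdgfra and Olig2 also overlapped in replicate 1 (up to 12.5 and from 11.8 tags per 10 M) but not in replicate 2.

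**Figure D3:**
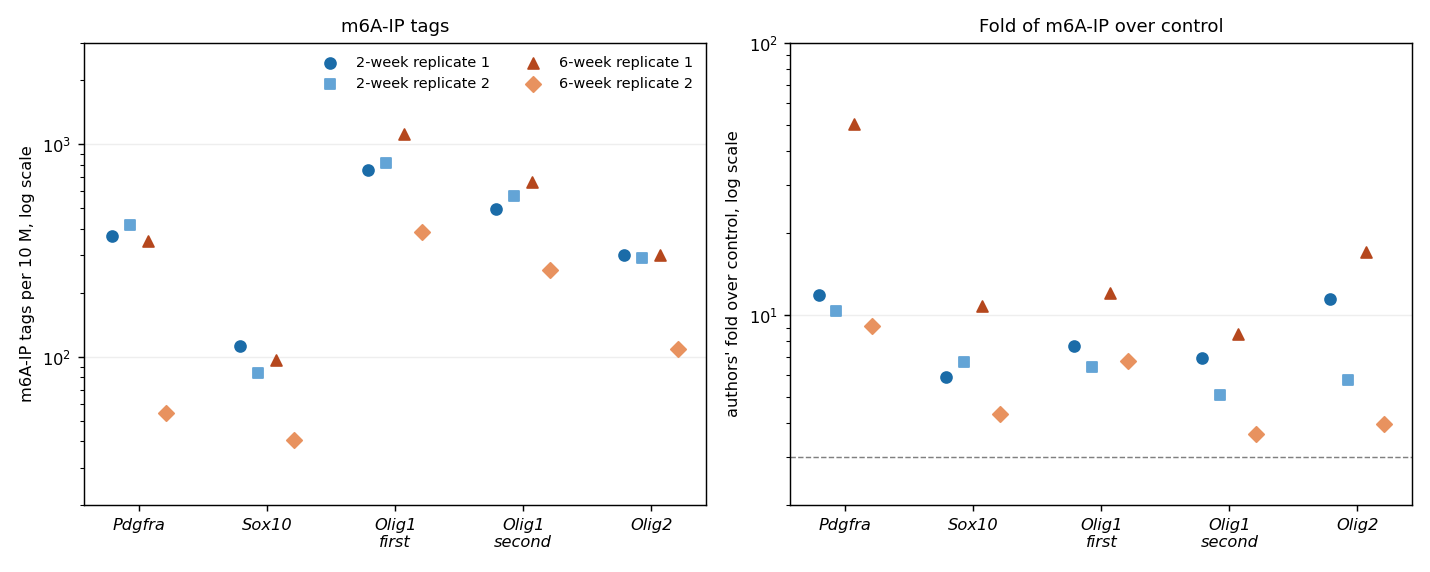
IP tags per 10 M (left) and the authors' fold of IP over control (right), both on log axes, at the same 5 regions with 1 point per library; the dashed line marks the 3-fold minimum of the lists. In 6-week replicate 2 the IP tags are the lowest at every region, and in 6-week replicate 1 the fold is the highest at every region.

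IP tags at the Pdgfra region were 372 and 418 per 10 M at 2 weeks and 349 and 54.5 at 6 weeks. One 6-week library was thus close to the 2-week level and the other was low, although their inputs were alike. The ratio of 6-week replicate 1 to replicate 2 in IP tags was 6.40 at Pdgfra, where the median over the 4577 regions was 1.54, and 99.7% of regions had a ratio as high or lower. In input tags the same ratio was 1.17, beside a median of 1.11. The IP log2 change was -0.74 ± 0.49 (SE; edgeR adjusted p = 0.468). Leaving out 6-week replicate 1 gave -2.11, and leaving out replicate 2 of that age gave -0.06. The size of the change thus rests on which 6-week library is kept, and each of these fits had a single library of that age. In the fit with every library, 0.852% of the 4577 regions passed with higher and 0.240% with lower IP tags.

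At the first Olig1 region IP tags were 752 and 820 per 10 M at 2 weeks and 1116 and 388 at 6 weeks, the highest level of any member. At the second they were 496 and 569, then 662 and 256. Olig2 had 300.4 and 291 at 2 weeks and 302 and 108 at 6 weeks. Sox10 had 113 and 83.6, then 96.1 and 40.6. Pdgfra was the 1 region of 5 whose 6-week IP levels were both below the 2-week ones, which was so at 41.7% of the 10203 regions. In all 4 regions of the transcription factor genes, the 6-week libraries lay apart by 2.37-fold to 2.87-fold, and the ages overlapped. The log2 changes were 0.24 ± 0.43 and 0.11 ± 0.40 for Olig1 in the fit of 4577 regions and -0.23 ± 0.39 and -0.21 ± 0.39 for Olig2 and Sox10 in that of 10203 (SE; edgeR adjusted p from 0.803 to 0.916). In the larger fit edgeR passed no region in either direction, with 1672 at an unadjusted p under 0.05, while DESeq2 passed 105 higher and 83 lower.

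The low IP level of 6-week replicate 2 was not particular to these genes. It was the lowest of the 4 libraries in IP tags at 5 of 5 member regions and at 67.3% of the 10203 regions. Its median IP level over those regions was 36.3 per 10 M, against 55.2 in 6-week replicate 1 and 59.7 and 65.8 at 2 weeks. Leaving out 6-week replicate 2 moved the Pdgfra log2 change in IP tags from -0.74 to -0.06 in the fit of 4577 regions. The cause of the low level was not tested.

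Enrichment followed the same split between the 6-week libraries. At Pdgfra the authors' fold over control was 11.8 and 10.3 at 2 weeks, then 50.1 and 9.12 for replicates 1 and 2 at 6 weeks. The value of 50.1 stood on 563 IP tags and 11 control tags and lay at the 97.8th percentile of its list. The fitted log2 change of the ratio was 1.14 ± 0.56 (SE; unadjusted p = 0.0494, edgeR adjusted p = 0.999). Left without 6-week replicate 1 the fit gave -0.18, and left without its partner it gave 1.86. For enrichment edgeR and DESeq2 passed none of the 4577 regions (0% in either direction), while 127 and 28 had an unadjusted p below 0.05.

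For the transcription factor genes the fold at 2 weeks was 7.68 and 6.45 at the first Olig1 region, 6.93 and 5.07 at the second, 11.4 and 5.77 at Olig2 and 5.90 and 6.70 at Sox10. At 6 weeks, replicate 1 gave 12.1, 8.49, 17.0 and 10.8 in the same order, and replicate 2 gave 6.79, 3.66, 3.97 and 4.32. The ages overlapped in all of them and at Pdgfra, so 0 of 5 regions were separated by age, while 29.2% of the 10203 regions were separated in either direction. The log2 changes were 0.27 ± 0.40, -0.18 ± 0.41, -0.07 ± 0.50 and 0.09 ± 0.52 (SE; edgeR adjusted p = 0.999 for each), and in the fit of 10203 regions edgeR passed none, with 307 at an unadjusted p below 0.05. An interval of 2 SE around the Olig2 value spans about a doubling in either direction, so changes of that size were not detectable here. The fold was highest in 6-week replicate 1 at 5 of 5 member regions, against 46.3% of all 10203 regions.

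**Figure D4:**
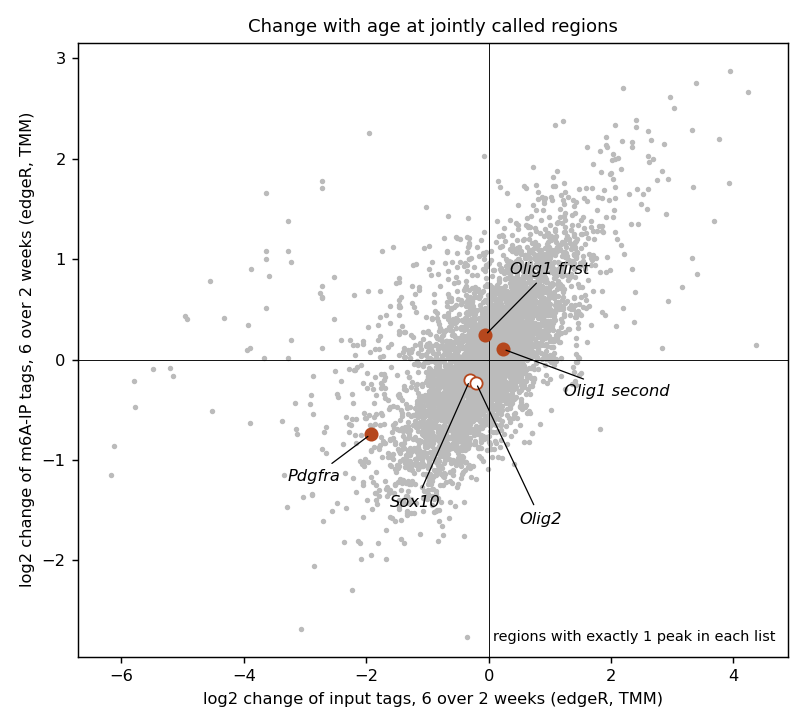
Log2 change from 2 to 6 weeks of input tags (horizontal axis) and of IP tags (vertical axis) in edgeR fits; grey points are the 4577 regions tested with exactly 1 peak per list, filled red points are members among them and open red points are Sox10 and Olig2 from the fit of 10203 regions. Pdgfra, at -1.92 in input and -0.74 in IP, lies far to the left, and the other members lie near the origin.

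The remaining regions showed how calls in 1 gene differ between libraries. A further Olig1 region, chromosome 16 from 91271712 to 91271816, was called in every library but 6-week replicate 1. It had 568 and 602 IP tags per 10 M at 2 weeks and 241 in 6-week replicate 2, at 3.71-fold, 3.40-fold and 4.71-fold, close to the 3-fold minimum of the lists. Its input was 1.56 and 1.39 times that of the first Olig1 region in the 2-week libraries and 0.896 times in 6-week replicate 2. In 6-week replicate 1 a peak was called instead at 91270072, below the first region, with 244 IP tags per 10 M at 4.02-fold.

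In Olig2, 6-week replicate 1 had a strong peak of its own at 91227626, with 358 IP tags per 10 M at 21.0-fold over 27 control tags. It lay just below the region shared by all libraries without touching it, and no other list had a peak there. The same library alone had a weak peak at 91228430, from 30 IP tags. Near the lower end of the window, which is the 5' side since RefSeq places Olig2 on the plus strand, a weak region from 91225745 to 91225915 was called in 2-week replicate 1 (30 IP and 12 control tags) and in 6-week replicate 1 (22 IP and 0 control tags). Within the shared region, peaks of 2-week replicate 1 that started 7 bp apart held 302 and 680 IP tags. The tags of a peak may thus not be exactly those of its printed interval, and the cause was not tested.

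In Sox10, a region from 78986574 to 78986706 lay beside the shared one. It had 69.1 and 132 IP tags per 10 M at 2 weeks and 29.1 in 6-week replicate 1, over input levels of 20.1, 33.3 and 8.87, and the fold was 3.43, 3.95 and 3.29. The 6-week library was the lowest in both measures. A weaker region from 78989094 to 78989294 was called in the same 3 libraries, with 5.55 to 21.3 IP tags per 10 M. The last Sox10 peak, at 78993710 in 6-week replicate 2, had a fold of 3.01, the lowest of all members and just inside the minimum of 3.

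As to abundance, all 12 Olig1 peaks ranked in the top 5% of their lists by IP tags, between the 95.4th and 99.5th percentile, although their fold ranked only between the 7.49th and 76.1st. Pdgfra at its shared region ranked at the 97.8th to 97.9th percentile in IP tags at 2 weeks, and at the 97.2nd and 82.1st at 6 weeks. In input tags it went from the 93.3rd and 94.6th percentile to the 67.8th and 67.5th. By IP tags, which depend on enrichment as well as RNA level, Sox10 ranked lowest of the 4 in every library, at the 75.4th to 88.7th percentile in IP tags in its shared region.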

How the data were processed

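Peak lists of 4 m6A-IP libraries were used. The submitters' processing notes name HOMER (no version), Cufflinks 2.2.1, Bowtie2 2.2.3, TopHat2 in versions 2.1.1 and 2.0.13, and build mm9, without their roles. Each library has a list of its own; which input served as control, and how the caller was set, is not given in the sources used here. Deposited IP tags are whole counts in 2-week replicate 1 and a scaled signal elsewhere; deposited control tags are a scaled signal in 2-week replicate 1 and otherwise estimated counts with 0.5 for no tag, set to 0 here. The deposited score, fold ratio and p-value are the authors' and only describe peaks; the deposited focus ratio, a fraction, was not used. Whole tags were recovered by dividing by the value of 1 tag (100.0% whole within 0.2 tag), and depth assumes scaling to 10000000 tags.

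The named regions are every merged region in the 4 windows, with values in each library for those in all 4 lists. The members and lists were chosen with earlier results of these data known. A list of other lineage and cell type genes was not used, since it needed an mm9 annotation, so the tissue label was not checked against markers. Fits used edgeR 4.0.16 (quasi-likelihood, TMM, Benjamini-Hochberg over all regions, threshold 0.05), with an interaction of fraction and age for enrichment and a width offset for input, in R 4.3.3; DESeq2 1.42.0, matplotlib 3.10.9, scipy 1.17.1, numpy 2.4.6, pandas 2.3.3 and Python 3.11.15 were also used. Fits were tested on simulated data. Replicates differed by more than sampling noise (chi-square per degree of freedom 16.7 and 22.0 in IP, 3.17 and 2.55 in control tags). Alternatives were total tags, DESeq2, a minimum of 10 control tags, a replicate block, the wider region set and leaving out each library.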

Additional observations from a re-analysis of the deposited data

How the results depend on the processing

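At 8-fold or more, 9 regions remained in the windows and 1 was called in every list, since fewer peaks enter. Leaving out 1 library gave 12 to 15 regions in the windows, 5 to 7 called in every list, and 0 to 2 and 0 to 3 called only at 2 and only at 6 weeks.

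Over 4577 regions, 51 regions had higher and 49 lower input at 6 weeks. These counts were 21 and 370 for total tags and 30 and 25 with at least 10 control tags. Under DESeq2, which adjusted p for only 1116 of these regions, they were 24 and 15. The lower calls became 31 with at least 1 peak in each list. With a library left out they spanned 0 to 85 and 0 to 72, the remaining library of that age being assumed to vary like the other age. IP calls (39 and 11) were 0 and 0 for total tags, 60 and 44 under DESeq2, 19 and 7 with at least 10 control tags and 0 and 0 with at least 1 peak in each list; leaving out 1 library gave 3 to 402 and 1 to 325. Enrichment calls stayed at 0 except 2 without 6-week replicate 2. The cause was not tested. A replicate block gave 112 and 78 IP calls and changed no call at a member; the numbers share no stated source, and deviations of same-numbered libraries correlated at 0.03 in both input and IP tags across regions.

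None of the members whose sign turned had passed the test. With total tags the signs turned for IP at the first (-0.0634) and second (-0.22) Olig1 regions, for input at the second (-0.31) and for enrichment at Olig2 (0.0308). Leaving out 1 library gave ranges across 0: for the first Olig1 region -0.34 to 0.18 in input and -0.27 to 0.62 in IP, for the second -0.31 to 0.43 in IP and -0.60 to 0.20 in enrichment, for Olig2 -0.62 to 0.20 in input, -0.69 to 0.11 in IP and -0.87 to 0.72 in enrichment, for Sox10 -0.63 to 0.12, -0.52 to 0.13 and -0.36 to 0.46, and for Pdgfra enrichment -0.18 to 1.86. Pdgfra input stayed between -2.01 and -1.83. The 6-week Pdgfra controls of 11 and 7 tags limit the precision of its ratio.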

Other observations

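Peaks just outside the windows were few. Below Olig2, 3 libraries had a weak peak 642 to 803 bp from the window, with 11 IP tags in 6-week replicate 1, 10 in 2-week replicate 1 and 11 in 2-week replicate 2, over 0, 1 and 1 control tags. Between Olig2 and Olig1, 2-week replicate 2 had a peak at 91236091 with 16 IP tags. Below Sox10, 6-week replicate 2 had a peak 2.87 kb from the window at 3.78-fold. The nearest peaks outside the Pdgfra window lay 223 kb below and 449 kb above it.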
